A study of Caenorhabditis elegans with 12 samples.

Results

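The ugt genes of Caenorhabditis elegans, which encode the UDP-glucuronosyltransferases, were followed through 12 RNA-seq libraries made from whole day-1 adults. Members were taken by name: every gene whose WormBase symbol is ugt- followed by a number and that had at least 60 counts summed over the 12 libraries. Of 67 such symbols among the 46904 genes listed, 57 met the count minimum and 10 did not (ugt-3, ugt-10, ugt-15, ugt-27, ugt-34, ugt-35, ugt-38, ugt-42, ugt-56 and ugt-67). Just inside the minimum were ugt-37 with 66 counts and ugt-59 with 67, and just outside it were ugt-56 with 54 and ugt-42 with 51. Of the 57 members, 55 also passed the low-count filter of the statistical fit; ugt-37 and ugt-59 did not, and their levels were described without a test.

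UDP-glucuronosyltransferases are membrane enzymes of the endoplasmic reticulum that move a sugar from a UDP-sugar donor onto small lipophilic molecules. The conjugates are more soluble in water and leave the cell through ABC transporters, so the family is counted among the phase II detoxification enzymes. In nematodes the family has expanded into many genes, the sugar transferred is often glucose, and several members are known to be induced by foreign compounds in the intestine. The substrates of most single members named here are not known with certainty, so no role is given beyond that of the family. PMK-1 is a p38-type mitogen-activated protein kinase that is best known in worms for intestinal immune and stress responses.

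The 4 groups, each of 3 biological replicates, were pmk-1(km25) mutants in 100 mM NaCl, pmk-1(km25) mutants in 100 mM KCl, wild-type N2 in 100 mM NaCl and wild-type N2 in 100 mM KCl. All groups shared 4 h in the salt solution without bacterial food, and each sample pooled about 1000 animals. The NaCl arm is the low-potassium arm of the study; since sodium replaces potassium in it, effects of the 2 ions cannot be told apart. The mutant is represented by 1 allele, and its rearing beyond the common protocol is not described. RNA came from the whole animal, so fewer cells of a type and less RNA per cell cannot be told apart in any value that follows.

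Library totals ran from 8931797 to 11445709 counts, of which the 57 members took between 0.0601% and 0.189%. Levels are given as CPM, which are counts relative to the library total after TMM scaling. The pmk-1 gene itself had 231, 200 and 180 counts in pmk-1 NaCl and 206, 242 and 206 in pmk-1 KCl, against 217, 326 and 441 in wild-type NaCl and 328, 308 and 358 in wild-type KCl, values that overlapped between the genotypes in NaCl and not in KCl. Ribosomal RNA took 3.52% to 4.997% of counts in pmk-1 NaCl and 0.605% to 3.26% in pmk-1 KCl. In wild type it took 0.931% to 2.51% in NaCl and 0.671% to 2.59% in KCl. What this has to do with the family's values was not tested. The genotypes also differed in markers of gametes and embryos. The summed level of 9 sperm genes, of 10 listed, lay between 117 and 459 CPM in pmk-1 NaCl and between 108 and 279 in pmk-1 KCl, against 2.81 to 18.5 in wild-type NaCl and 1.504 to 13.3 in wild-type KCl, where spe-38 was at 0. The 10 markers of later embryos summed to 69.3 to 114.7 CPM in pmk-1 NaCl, where med-1 was at 0, and 84.5 to 129 in pmk-1 KCl, against 142 to 183 in wild-type NaCl and 172 to 225 in wild-type KCl. The 10 intestinal markers, all detected in every group, summed to 28645 to 33164 CPM in pmk-1 NaCl and 20331 to 29177 in pmk-1 KCl, against 34443 to 40309 in wild-type NaCl and 29226 to 33121 in wild-type KCl. Gene by gene most went the other way. In pmk-1 against wild type 8 had a log2 fold change above 0 in NaCl and 2 below, and in KCl 7 and 3. At an edgeR adjusted p under 0.05, 4 were higher in NaCl (16.7% of all genes) and 3 in KCl (15.2%). None was lower at that threshold in either salt. The 8 epidermal markers summed to 1703 to 2460 CPM in pmk-1 NaCl and 1788 to 2483 in pmk-1 KCl. In wild type they summed to 1007 to 1249 CPM in NaCl and 1084 to 1376 in KCl. Gene by gene, 4 of these had a log2 fold change above 0 in pmk-1 and 4 below, in each salt. All 8 body wall muscle markers were above 0 in both salts. Replicate 1 had the highest sperm sum in each of the 4 groups, and pmk-1 NaCl replicate 1 stood apart with the highest sperm sum (459 CPM), the lowest oocyte sum (2195 CPM, against 3587 to 5959 in the other 11 libraries) and the lowest embryo sum (69.3 CPM).

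The family as a whole was most abundant in the mutant in NaCl and least abundant in the mutant in KCl. The 57 levels summed to 2104, 1291 and 1331 CPM in pmk-1 NaCl, 776, 652 and 594 in pmk-1 KCl, 1051, 1098 and 1104 in wild-type NaCl and 805, 925 and 932 in wild-type KCl. The sums of the NaCl and KCl libraries did not overlap within either genotype, and those of the genotypes did not overlap within either salt. Much of the movement came from 4 genes that the membership rule gives as examples, ugt-25, ugt-26, ugt-28 and ugt-29. Their joint level was 606.8 ± 201 CPM in pmk-1 NaCl and 62.9 ± 15.1 in pmk-1 KCl, against 371 ± 54.7 in wild-type NaCl and 199.96 ± 19.6 in wild-type KCl (mean ± SD, n = 3 each). The other 53 members summed to 969 ± 260 CPM in pmk-1 NaCl and 611 ± 77.9 in pmk-1 KCl, against 714 ± 73.4 in wild-type NaCl and 687 ± 52.7 in wild-type KCl. The 4 genes thus made up 35.6% to 39.7% of the family's level in pmk-1 NaCl and 8.71% to 10.3% in pmk-1 KCl, against 27.9% to 37.7% in wild-type NaCl and 22.1% to 23.2% in wild-type KCl. No test was put on these sums, since the members were chosen with their values known. A single library, pmk-1 NaCl replicate 1, was the highest of the 12 for 32 of the 57 members. The same count was not made over all genes, so nothing particular to the family is read from it. What the marker levels of that library have to do with this was not tested.

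**Figure D1:**
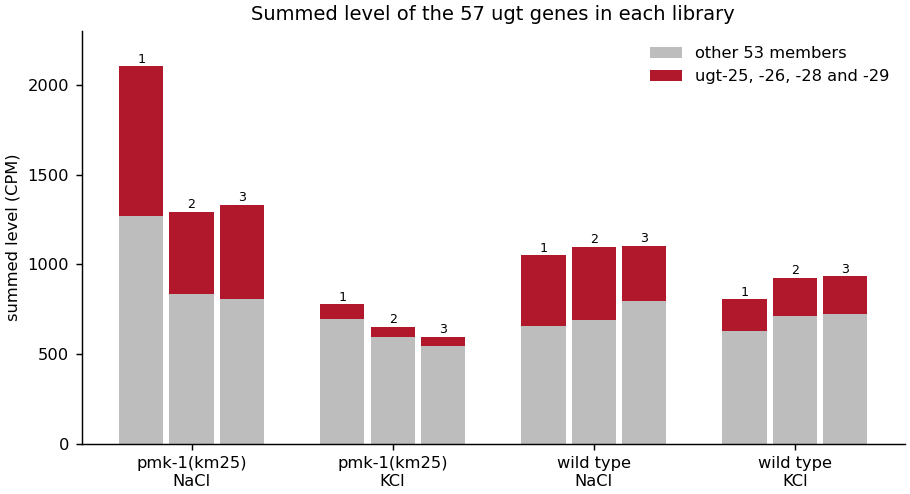
Summed level of the 57 ugt genes (vertical axis, CPM) in each of the 12 libraries, grouped by genotype and salt and numbered by replicate; the red part of each bar is the sum of ugt-25, ugt-26, ugt-28 and ugt-29, the grey part the other 53 members. The red part is tallest in pmk-1(km25) NaCl and smallest in pmk-1(km25) KCl, and replicate 1 of pmk-1(km25) NaCl reaches 2104 CPM.

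Members differed widely in level. Divided by exon length (1542 to 2909 bases, median 1716), the mean level over the 12 libraries ran from 0.332 to 56.95 CPM per kb with a median of 5.05; 19 members were over 10 CPM per kb and 8 were under 1. The 8 most abundant members per length, in falling order ugt-26, ugt-29, ugt-62, ugt-49, ugt-64, ugt-28, ugt-41 and ugt-58, held 49.3% of the summed level per length. The order itself differed between groups. In pmk-1 NaCl the level per length was 121 CPM per kb for ugt-29, 88.9 for ugt-26 and 51.02 for ugt-28. In pmk-1 KCl these genes were at 9.64, 12.4 and 6.84 CPM per kb, below ugt-49 at 36.5, ugt-64 at 29.5 and ugt-62 at 26.5. In wild-type KCl ugt-26 was at 54.6 CPM per kb and ugt-62 at 42.7, ahead of ugt-41 at 21.1 and ugt-58 at 21.6. Of these 8, ugt-62 and ugt-64 were called in no comparison of the main edgeR fit, on all 12 libraries without a replicate block. With the block ugt-64 was called higher in pmk-1 in NaCl (log2 fold change 0.45 ± 0.14, edgeR adjusted p = 0.0261), as it was without pmk-1 KCl replicate 1. By DESeq2 ugt-62 was called lower in pmk-1 in KCl (adjusted p = 0.0460). So it was in edgeR with the block, with the first replicates left out, with only the 2 groups compared, and without pmk-1 NaCl replicate 1. The level of ugt-62 was 109, 56.1 and 57.2 CPM in pmk-1 NaCl, 52.6, 48.0 and 33.9 in pmk-1 KCl, 63.5, 58.8 and 81.8 in wild-type NaCl and 68.8, 74.2 and 73.4 in wild-type KCl. For ugt-64 the values were 67.5, 58.6 and 69.7 CPM in pmk-1 NaCl, 46.9, 58.1 and 52.1 in pmk-1 KCl, 37.6, 50.8 and 55.7 in wild-type NaCl and 46.4, 49.8 and 45.7 in wild-type KCl.

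The first comparison asks which members respond to the choice of salt in animals with PMK-1, and ugt-25 was the one that passed. It had 43.0, 85.5 and 65.7 CPM in wild-type NaCl, against 9.44, 14.1 and 8.12 CPM in wild-type KCl. Every NaCl library was above every KCl library, and the means were 64.7 ± 21.3 CPM in NaCl and 10.6 ± 3.14 CPM in KCl (SD, n = 3 each). The log2 fold change was 2.61 ± 0.34 (± here and beside every log2 fold change is the SE), with a Benjamini-Hochberg adjusted p = 0.0129 in edgeR's quasi-likelihood test over the 13353 genes tested. Genes were called at an adjusted p under 0.05. In all, 1 of 55 members was called higher, where the same rule called 0.172% of all genes higher. None was called lower in edgeR, where 0.015% of all genes were; 2 members were lower at an unadjusted p under 0.05 (ugt-44 and ugt-48, 1.33% of all genes), and DESeq2 called 1 lower, ugt-44 (0.159% of all genes). At an unadjusted p under 0.05 a further 9 members were higher besides ugt-25, 10 in all, where 2.94% of all genes were. The median log2 fold change was 0.05 over the 55 members and -0.01 over all genes, with 32 members above 0 and 23 below.

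The replicates numbered 1 deviated together between the salts, while those numbered 2 were no closer to each other than to number 3. With the replicate number as a block 4 members were called higher in wild type, ugt-8, ugt-25, ugt-29 and ugt-66 (0.809% of all genes). The call of ugt-25 rested on all libraries of its comparison but 1: the edgeR adjusted p was 0.115, 0.0520 and 0.114 without wild-type KCl replicates 1, 2 and 3, and 0.0742 and 0.0565 without wild-type NaCl replicates 2 and 3. The last 26 exonic bases of ugt-25 overlap mlst-8, a gene of the TOR pathway, on the opposite strand, and the strandedness of the libraries is not given. Between the salts, mlst-8 itself had a log2 fold change of -0.18 ± 0.15 in pmk-1 (edgeR adjusted p = 0.664) and of -0.07 ± 0.14 in wild type (edgeR adjusted p = 1.00).

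In the pmk-1 mutant, of 55 members 11 were called higher in NaCl (20.0%, where the rule called 2.33% of all genes) and 1 lower (1.82%, against 0.382% of all genes). The genes higher in NaCl were ugt-13, ugt-22, ugt-25, ugt-26, ugt-28, ugt-29, ugt-41, ugt-53, ugt-63, ugt-65 and ugt-66, and the gene lower in NaCl was ugt-44. The median log2 fold change was 0.57 over the members and -0.01 over all genes; 43 members were above 0 and 12 below.

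The most abundant of them in pmk-1 NaCl was ugt-29, on the minus strand of chromosome V (696524 to 699589 in WBcel235). It had 387, 185 and 223 CPM in pmk-1 NaCl, against 28.3, 17.7 and 17.2 CPM in pmk-1 KCl, a log2 fold change of 3.65 ± 0.34 (edgeR adjusted p = 2.32e-04). All NaCl libraries were above all KCl libraries. ugt-26 had 263, 113 and 139 CPM in pmk-1 NaCl, against 40.0, 15.7 and 16.1 CPM in pmk-1 KCl (log2 fold change 2.84 ± 0.39, edgeR adjusted p = 0.00304). Replicate 1 was the highest library of both groups for ugt-26 and for ugt-29. Its neighbour ugt-28 had 114.7, 78.3 and 72.4 CPM in pmk-1 NaCl, against 8.39, 14.6 and 12.6 CPM in pmk-1 KCl (2.90 ± 0.26, edgeR adjusted p = 2.32e-04). The third gene of that neighbourhood, ugt-25, had 71.6, 83.3 and 91.3 CPM in pmk-1 NaCl, against 3.42, 8.84 and 5.90 CPM in pmk-1 KCl (3.75 ± 0.36, edgeR adjusted p = 3.00e-04). For ugt-25 replicate 1 was the lowest library of each of these groups, unlike for ugt-26.

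Less abundant members showed changes of like size. ugt-63, with the largest fitted fold change of the family in any salt comparison, had 21.6, 15.1 and 8.62 CPM in pmk-1 NaCl, against 0.621, 0.658 and 0.932 CPM in pmk-1 KCl (4.33 ± 0.58, edgeR adjusted p = 0.00262). ugt-66 had 38.4, 26.6 and 13.1 CPM in pmk-1 NaCl, against 3.31, 4.99 and 2.69 CPM in pmk-1 KCl (2.82 ± 0.40, edgeR adjusted p = 0.00346). In both genes pmk-1 NaCl replicate 3 was the lowest NaCl library and still above all KCl libraries. ugt-13 had 33.1, 19.7 and 16.997 CPM in pmk-1 NaCl, against 4.66, 4.99 and 2.69 CPM in pmk-1 KCl (2.49 ± 0.38, edgeR adjusted p = 0.00503). ugt-41 had 86.9, 70.5 and 66.4 CPM in pmk-1 NaCl, against 21.3, 44.8 and 35.1 CPM in pmk-1 KCl (1.14 ± 0.23, edgeR adjusted p = 0.0237). These groups did not overlap either, though of these 4 genes ugt-41 came closest to it. The remaining higher genes were ugt-53 (2.44 ± 0.50, edgeR adjusted p = 0.0253), ugt-65 (2.21 ± 0.47, 0.0302) and ugt-22 (1.81 ± 0.41, 0.0406).

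The single fall was that of ugt-44, with 6.51, 3.40 and 2.19 CPM in pmk-1 NaCl, against 21.5, 9.22 and 12.02 CPM in pmk-1 KCl (log2 fold change -1.82 ± 0.42, edgeR adjusted p = 0.0435). The call was lost without any 1 of 10 libraries, at adjusted p between 0.0509 and 0.174, and held without wild-type NaCl replicate 3 or pmk-1 NaCl replicate 1. In wild type ugt-44 had 14.8, 14.2 and 24.8 CPM in NaCl, against 44.4, 46.3 and 57.4 CPM in KCl, groups that did not overlap, though the edgeR adjusted p was 0.294.

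Leaving out single libraries, 7 of the 12 calls of the mutant held without any 1 library, those of ugt-13, ugt-25, ugt-26, ugt-28, ugt-29, ugt-63 and ugt-66. Fitted on only the 2 groups compared, 4 members were called higher in pmk-1, ugt-25, ugt-28, ugt-29 and ugt-63 (0.342% of all genes), and none lower (0.0398% of all genes); ugt-26, ugt-66 and ugt-13 were then at an edgeR adjusted p of 0.0970, 0.0897 and 0.0706. The same kind of fit in wild type called 5 members higher (1.14% of all genes), ugt-8, ugt-25, ugt-29, ugt-51 and ugt-66, and 1 lower, ugt-44 (0.18% of all genes). The count of members called higher fell to 7 without pmk-1 NaCl replicate 1 (1.39% of all genes) and to 7 without pmk-1 KCl replicate 3 (0.699% of all genes). The call of ugt-41 was lost without pmk-1 KCl replicate 3 and without pmk-1 NaCl replicates 1 and 2 (edgeR adjusted p = 0.116, 0.0779 and 0.0763). That of ugt-53 was lost without pmk-1 KCl replicates 2 and 3 and pmk-1 NaCl replicates 1 and 2 (0.0927, 0.102, 0.0808 and 0.0541). ugt-65 was lost without 6 libraries, wild-type KCl replicate 3, wild-type NaCl replicate 2, pmk-1 KCl replicates 2 and 3 and pmk-1 NaCl replicates 1 and 3 (adjusted p between 0.0517 and 0.147). ugt-22 was lost without 8 libraries, wild-type KCl replicates 2 and 3, wild-type NaCl replicate 2, pmk-1 KCl replicates 2 and 3 and every pmk-1 NaCl replicate (0.0601 to 0.1998).

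**Figure D2:**
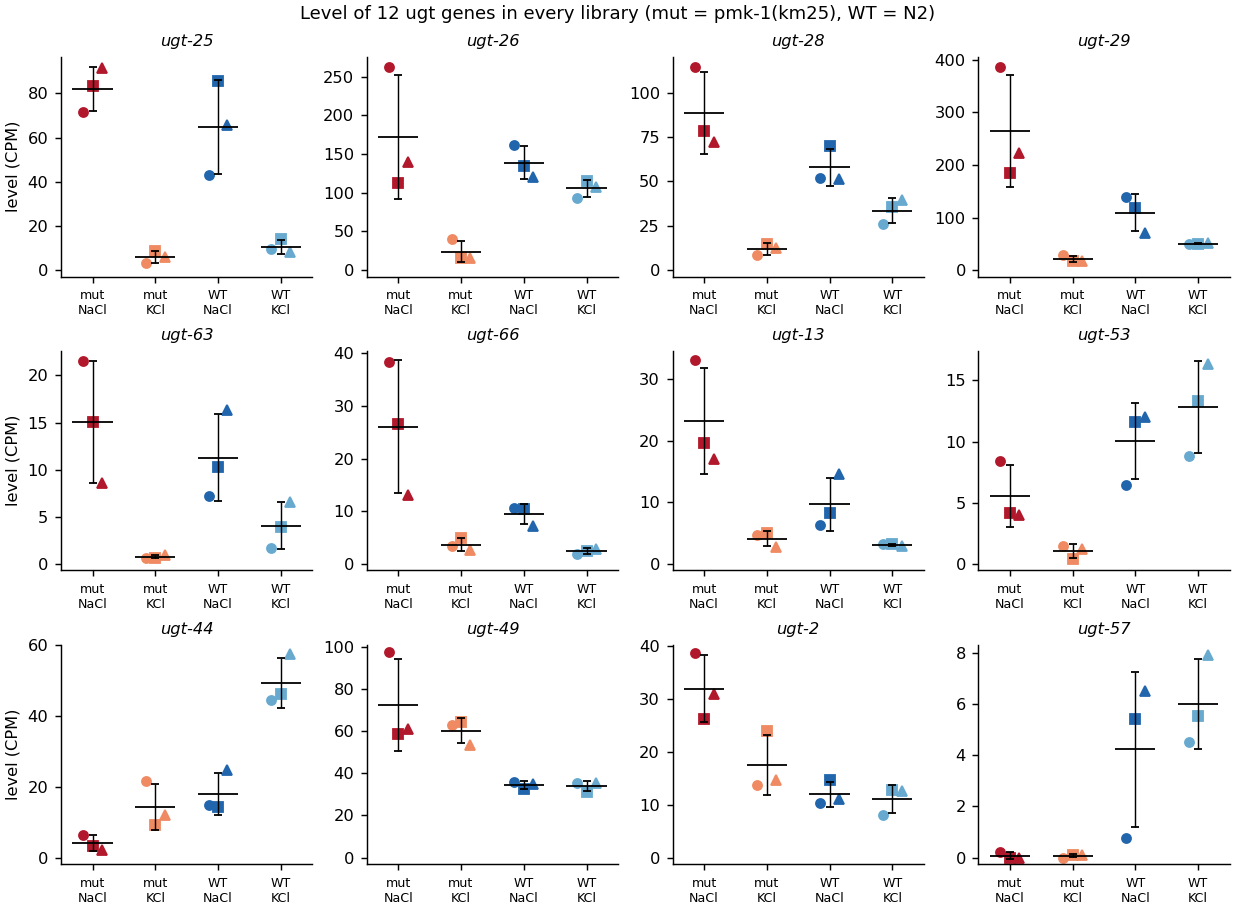
Level (vertical axes, CPM, separate scale per gene) of 12 ugt genes in each library, by genotype and salt from left to right as pmk-1(km25) NaCl, pmk-1(km25) KCl, wild-type NaCl and wild-type KCl; circles, squares and triangles are replicates 1, 2 and 3, and bars the mean ± SD (n = 3). In the mutant, the NaCl and KCl libraries do not overlap for the first 8 genes and ugt-2, nor for ugt-44, where NaCl is the lower group. The level of ugt-57 is near 0 in all 6 mutant libraries.

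Set side by side, the responses to salt of wild type and mutant ran in the same direction for most members. The mutant's log2 fold change was the higher one for most, a difference that is tested as the interaction below. The pairs share no libraries, although all 12 entered the same fit and the libraries numbered 1 deviated together. Across the 55 members the log2 fold changes of pmk-1 and wild type had a Pearson r of 0.690 and a Spearman rho of 0.560, given as a description across genes, which are not independent replicates. In 28 members both were above 0, in 8 both were below, and in 41 the mutant's value, taken with its sign, was the higher. This is not a count of larger changes: ugt-44, not among the 41, fell more in the mutant (-1.82 against -1.46). ugt-8, picked after its values were seen, had a log2 fold change of 2.06 ± 0.49 in pmk-1 and 2.64 ± 0.49 in wild type (edgeR adjusted p = 0.0512 and 0.0713, and 0.0156 in pmk-1 with the replicate block). ugt-53 had 8.45, 4.19 and 4.01 CPM in pmk-1 NaCl and 1.45, 0.376 and 1.24 in pmk-1 KCl, against 6.46, 11.6 and 12.03 in wild-type NaCl and 8.82, 13.3 and 16.3 in wild-type KCl. Its salt groups were separate in the mutant and overlapped in wild type.

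**Figure D3:**
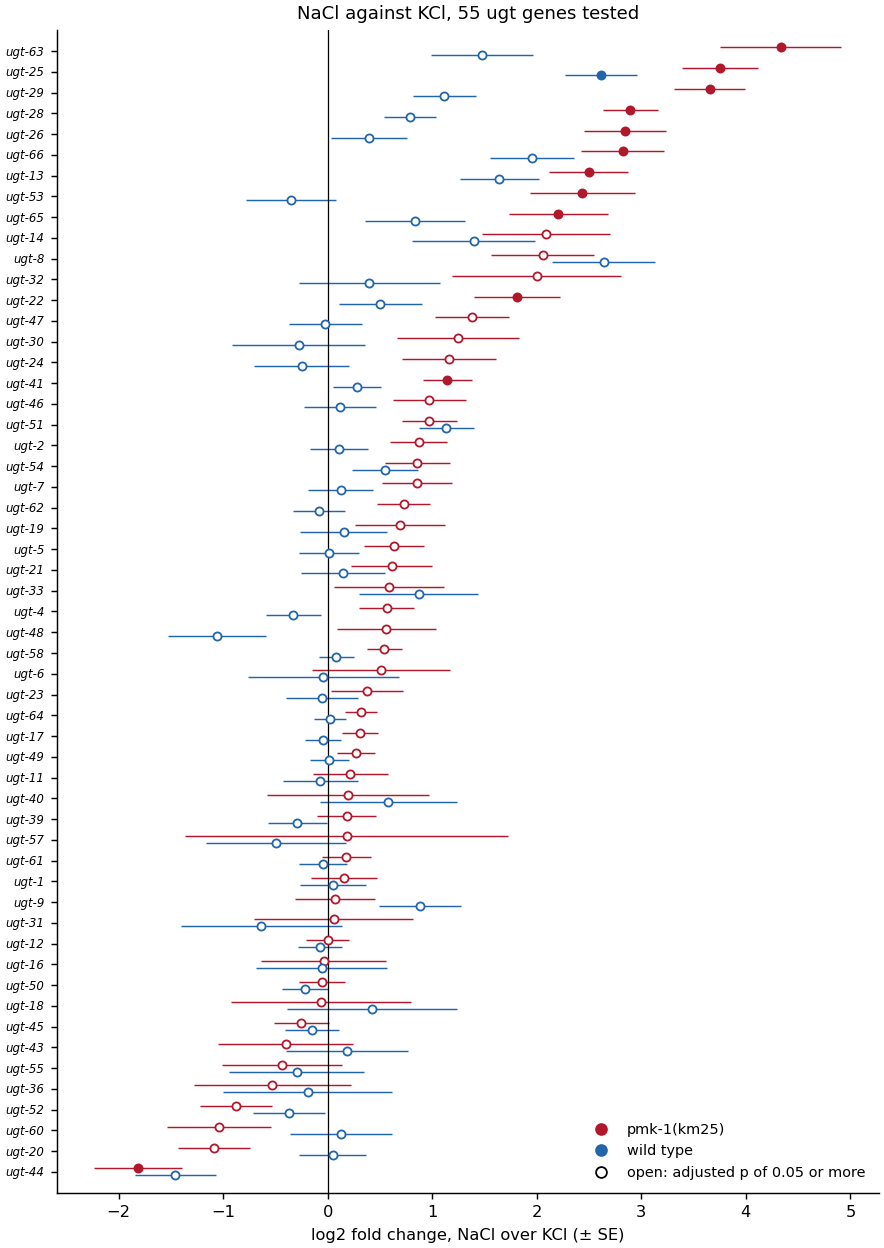
Log2 fold change of NaCl over KCl (horizontal axis, ± SE, n = 3 libraries per group) for the 55 tested ugt genes, ordered by the value in pmk-1(km25) (red), with wild type (blue); filled points have an edgeR adjusted p under 0.05. Down to ugt-22 the red points lie to the right of the blue ones, with ugt-8 as the exception; the values run from ugt-63 at 4.33 down to ugt-44 at -1.82 in pmk-1(km25); ugt-25 has the single filled blue point, at 2.61.

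The difference between the responses was tested as a salt by genotype interaction. In edgeR none of the 55 members was called in either direction at an adjusted p under 0.05, where 0.0374% of all genes were called higher and 0.0% lower. At an unadjusted p under 0.05, 13 members had a higher NaCl-over-KCl log2 fold change in pmk-1 (3.29% of all genes) and 1, ugt-20, a lower one (1.72%). DESeq2 called 5 members higher, ugt-26, ugt-28, ugt-29, ugt-53 and ugt-63 (0.689% of all genes), and none lower (0.23% of all genes). With the replicate block edgeR called 3, ugt-26, ugt-28 and ugt-29 (0.24% of all genes). The estimates were 2.54 ± 0.44 for ugt-29 (edgeR adjusted p = 0.0714, and 0.00964 with the block), 2.11 ± 0.35 for ugt-28 (0.0616, and 0.0282 with the block) and 2.45 ± 0.52 for ugt-26 (0.169, and 0.0230 with the block). For the most responsive gene of wild type, ugt-25, the interaction was 1.14 ± 0.47 (edgeR adjusted p = 0.902). The median interaction was 0.47 over the members and -0.01 over all genes, with 41 members above 0 and 14 below.

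The genotypes were then compared within each salt, first in KCl. Of 55 members 9 were called lower in pmk-1 than in wild type (16.4%, where the rule called 9.18% of all genes) and 1 higher (1.82%, where the rule called 15.2%). The lower genes were ugt-7, ugt-26, ugt-28, ugt-29, ugt-32, ugt-44, ugt-53, ugt-57 and ugt-63, and the higher gene was ugt-49. Calls between the genotypes were frequent over all genes, and nothing particular to the family is read from these counts. The pmk-1 KCl libraries also served in the salt comparison of the mutant. A gene lower here and higher in NaCl there was therefore not found independently. The median log2 fold change was -0.12 over the members and 0.02 over all genes, with 24 members above 0 and 31 below.

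ugt-26 had 40.0, 15.7 and 16.1 CPM in pmk-1 KCl, against 93.8, 115.1 and 108 CPM in wild-type KCl (log2 fold change -2.14 ± 0.38, edgeR adjusted p = 0.00445). ugt-28 had 8.39, 14.6 and 12.6 CPM in pmk-1 KCl, against 25.7, 35.3 and 39.6 CPM in wild-type KCl (-1.50 ± 0.26, edgeR adjusted p = 0.00388). For both genes all mutant libraries were below all wild-type libraries. ugt-53 had 1.45, 0.376 and 1.24 CPM in pmk-1 KCl, against 8.82, 13.3 and 16.3 CPM in wild-type KCl (-3.64 ± 0.51, edgeR adjusted p = 0.00172). ugt-63 had 0.621, 0.658 and 0.932 CPM in pmk-1 KCl, against 1.64, 3.91 and 6.62 CPM in wild-type KCl (-2.44 ± 0.57, edgeR adjusted p = 0.0111). ugt-7 had 1.45, 1.22 and 1.04 CPM in pmk-1 KCl, against 4.10, 3.81 and 2.51 CPM in wild-type KCl (-1.48 ± 0.33, edgeR adjusted p = 0.00991). In these genes too the groups did not overlap. ugt-29, at 28.3, 17.7 and 17.2 CPM in pmk-1 KCl against 48.8, 50.4 and 51.8 CPM in wild-type KCl, had a log2 fold change of -1.26 ± 0.31 (edgeR adjusted p = 0.0150), and ugt-32 one of -2.45 ± 0.79 (edgeR adjusted p = 0.0427). ugt-25 was not called in KCl (-0.80 ± 0.35, edgeR adjusted p = 0.114), with groups that overlapped.

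In KCl the calls of ugt-7, ugt-26, ugt-28, ugt-44, ugt-49, ugt-53 and ugt-57 held without any 1 library. With the first replicates of all groups left out, 4 members were called higher in pmk-1 (20.1% of all genes) and 18 lower (14.6% of all genes). Without wild-type KCl replicate 3 the count of lower members was 6 (4.09% of all genes), with ugt-29 at an adjusted p = 0.0555, ugt-63 at 0.0555 and ugt-32 at 0.133; ugt-29 was also lost without pmk-1 KCl replicate 2 (0.0542). ugt-32 was lost without 8 libraries, wild-type KCl replicates 2 and 3, wild-type NaCl replicate 2, every pmk-1 KCl replicate and pmk-1 NaCl replicates 2 and 3 (adjusted p between 0.0508 and 0.133).

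In NaCl, of 55 members 13 were called higher in pmk-1 (23.6%, where the rule called 16.7% of all genes) and 3 lower (5.45%, where the rule called 10.1%). The higher genes were ugt-2, ugt-4, ugt-13, ugt-24, ugt-29, ugt-30, ugt-41, ugt-47, ugt-49, ugt-54, ugt-58, ugt-65 and ugt-66, and the lower ones ugt-20, ugt-44 and ugt-57. The median log2 fold change was 0.34 over the members and 0.06 over all genes; 39 members were above 0 and 16 below. With the first replicates of all groups left out, 10 were called higher (17.2% of all genes) and 9 lower (15.8% of all genes). With the replicate block, 17 were called higher (23.4% of all genes) and 4 lower (16.6% of all genes), the added genes being ugt-17, ugt-28, ugt-39 and ugt-64, higher, and ugt-45, lower. These calls use the same pmk-1 NaCl libraries as the salt comparison in the mutant, so a gene named in both was not found independently.

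ugt-49 was higher in the mutant in both salts. It had 97.9, 58.5 and 61.1 CPM in pmk-1 NaCl and 62.97, 64.3 and 53.3 CPM in pmk-1 KCl, against 36.1, 32.5 and 34.8 CPM in wild-type NaCl and 35.5, 31.3 and 35.5 CPM in wild-type KCl. All 6 mutant libraries were above all 6 wild-type libraries, and the log2 fold change was 1.07 ± 0.18 in NaCl (edgeR adjusted p = 0.00414) and 0.82 ± 0.18 in KCl (edgeR adjusted p = 0.00971). ugt-2 had 38.7, 26.1 and 30.8 CPM in pmk-1 NaCl, against 10.2, 14.6 and 10.97 CPM in wild-type NaCl (1.42 ± 0.28, edgeR adjusted p = 0.00579). ugt-4 had 38.5, 55.8 and 43.95 CPM in pmk-1 NaCl, against 20.8, 22.9 and 20.4 CPM in wild-type NaCl (1.11 ± 0.27, edgeR adjusted p = 0.0122). For ugt-4 the highest mutant library was replicate 2, not replicate 1. ugt-30 had 18.8, 4.301 and 6.31 CPM in pmk-1 NaCl, against 1.45, 1.14 and 1.49 CPM in wild-type NaCl (2.84 ± 0.63, edgeR adjusted p = 0.00879). ugt-29 had 387, 185 and 223 CPM in pmk-1 NaCl, against 139, 118.7 and 70.2 CPM in wild-type NaCl (1.28 ± 0.30, edgeR adjusted p = 0.0114). Here replicate 1 was the highest library of each group for ugt-29, and the groups did not overlap. Without the block ugt-26 and ugt-28 were not called in NaCl, at log2 fold changes of 0.31 ± 0.36 (edgeR adjusted p = 0.530) and 0.61 ± 0.24 (edgeR adjusted p = 0.0810); with it ugt-28 was at 0.64 ± 0.23 (edgeR adjusted p = 0.0463).

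Among the lower genes, ugt-57 on the plus strand of chromosome X (6991727 to 6994162) was close to undetected in mutant animals. The libraries held 2, 0 and 0 counts of it in pmk-1 NaCl and 0, 1 and 1 in pmk-1 KCl, against 7, 52 and 74 in wild-type NaCl and 44, 58 and 79 in wild-type KCl. Scaled for depth, the pmk-1 libraries held 1.75% of the wild-type level in NaCl (95% exact interval 0.209% to 6.43%) and 1.12% in KCl (0.134% to 4.09%), intervals that cover counting error only. In edgeR the adjusted p was 0.00495 in NaCl and 0.00323 in KCl. Wild-type NaCl replicate 1, with 7 counts, stood well below the other 5 wild-type libraries. ugt-44 had 6.51, 3.40 and 2.19 CPM in pmk-1 NaCl, against 14.8, 14.2 and 24.8 CPM in wild-type NaCl (log2 fold change -2.15 ± 0.42, edgeR adjusted p = 0.00569), and was also lower in KCl, at 21.5, 9.22 and 12.02 CPM in pmk-1 against 44.4, 46.3 and 57.4 CPM in wild type (-1.79 ± 0.39, edgeR adjusted p = 0.008995). ugt-20 had 1.71, 1.02 and 0.971 CPM in pmk-1 NaCl, against 3.79, 3.01 and 3.16 CPM in wild-type NaCl (-1.42 ± 0.34, edgeR adjusted p = 0.0123). None of these groups overlapped.

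Markers of sperm moved with the genotype beside these members: all 8 tested sperm genes were called higher in pmk-1 in NaCl (16.7% of all genes) and 6 of 8 in KCl (15.2%). Of 8 tested embryo markers 5 were called lower in NaCl (10.1% of all genes) and 3 in KCl (9.18%). Their part in the family's values was not tested. Without pmk-1 NaCl replicate 1, the library with the highest sperm sum, 5 members were called higher in pmk-1 in NaCl (8.79% of all genes): ugt-2, ugt-4, ugt-29, ugt-30 and ugt-49. Without wild-type NaCl replicate 2 the count was also 5 (7.75% of all genes), and without wild-type NaCl replicate 3 it was 6 (7.66% of all genes). In the omissions of single libraries, ugt-2, ugt-20, ugt-29, ugt-30, ugt-44, ugt-49 and ugt-57 kept their calls in NaCl throughout. ugt-4 was lost without wild-type NaCl replicate 3 alone (adjusted p = 0.0556), and ugt-66 without that library, wild-type NaCl replicate 2 and pmk-1 NaCl replicate 1 (0.0725, 0.0504 and 0.0665). ugt-54 was lost without the same 3 libraries (0.112, 0.0815 and 0.125), and ugt-65 without these and pmk-1 NaCl replicate 3 (0.131, 0.124, 0.142 and 0.0585). ugt-13 and ugt-47 were lost without wild-type NaCl replicates 1 and 2 and pmk-1 NaCl replicate 1 (0.0742, 0.0960 and 0.118 for ugt-13, and 0.0573, 0.0747 and 0.0962 for ugt-47). ugt-24, ugt-41 and ugt-58 were each lost without pmk-1 NaCl replicate 1 (0.226, 0.152 and 0.253), without wild-type NaCl replicate 2 (0.0977, 0.155 and 0.120), without wild-type NaCl replicate 3 (0.141, 0.135 and 0.0942) and without any wild-type KCl replicate (0.0524 to 0.0753 over the 3 genes). Further losses were those of ugt-24 and ugt-58 without wild-type NaCl replicate 1 (0.0618 and 0.133) and without pmk-1 KCl replicate 2 (0.0556 and 0.0741), of ugt-41 and ugt-58 without pmk-1 KCl replicate 3 (0.0634 and 0.0744), and of ugt-41 without pmk-1 NaCl replicate 2 (0.0702).

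**Figure D4:**
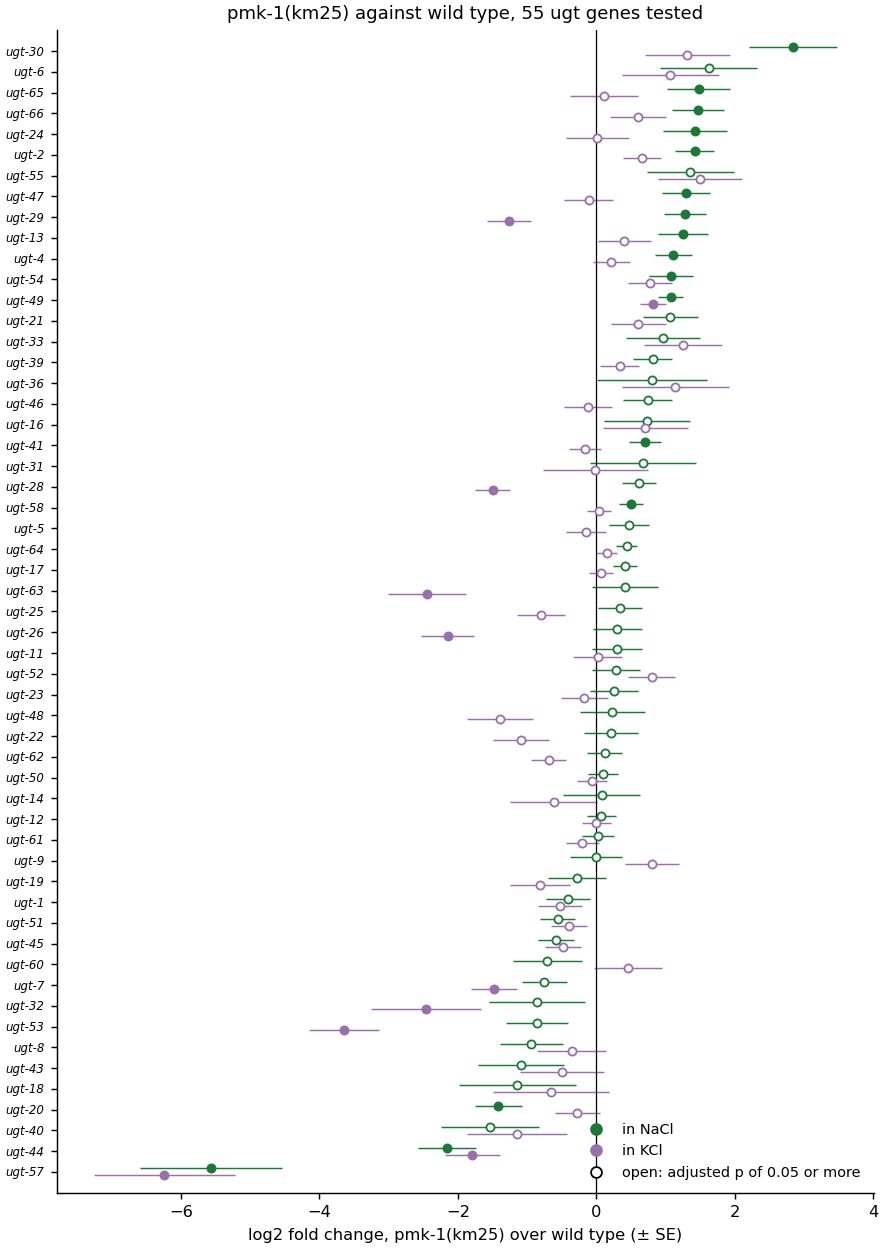
Log2 fold change of pmk-1(km25) over wild type (horizontal axis, ± SE, n = 3 libraries per group) for the 55 tested ugt genes in NaCl (green) and in KCl (purple), ordered by the value in NaCl; filled points have an edgeR adjusted p under 0.05. For ugt-29 the NaCl point is at 1.28 and the KCl point at -1.26, whereas ugt-49 is above 0 and ugt-44 and ugt-57 are below 0 in both salts; the ugt-57 estimates rest on 2 counts per mutant group.

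The members lie mostly on chromosome V, with 33 of 57 there (57.9%, where 18.6% of all tested genes are), 12 on IV, 4 on I, 4 on X, 3 on III and 1 on II. Many are neighbours: by a rule chosen after the values were seen, ugt genes at most 20 kb apart form 10 groups that hold 37 ugt genes and 28 members. In the group on the plus strand of chromosome I (4721131 to 4735276), the order is ugt-26, ugt-27, ugt-28 and ugt-25. All 3 tested genes of the group were called higher in NaCl in the mutant, while ugt-27, the gene between them, had 35 counts in all and was not a member. In the 8-gene group on chromosome V (4887165 to 4911399) the adjacent plus-strand genes ugt-8, ugt-14 and ugt-13 had log2 fold changes of 2.06 ± 0.49, 2.09 ± 0.61 and 2.49 ± 0.38 in pmk-1 and 2.64 ± 0.49, 1.396 ± 0.59 and 1.64 ± 0.38 in wild type. Of these ugt-13 was called, in pmk-1. Their neighbours ugt-11 and ugt-9 had log2 fold changes of 0.22 and 0.07 in pmk-1 and of -0.07 and 0.88 in wild type, that of ugt-12 was near 0 in pmk-1 and -0.07 in wild type, and none was called. Not all neighbours moved alike: ugt-41 rose in the mutant (1.14 ± 0.23) beside ugt-39 (0.18) and ugt-36 (-0.53), which were not called. Near-identical paralogues can share reads, and how the submitters' counting divided such reads is not known; no member had a copy with equal values in the count table.

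**Figure D5:**
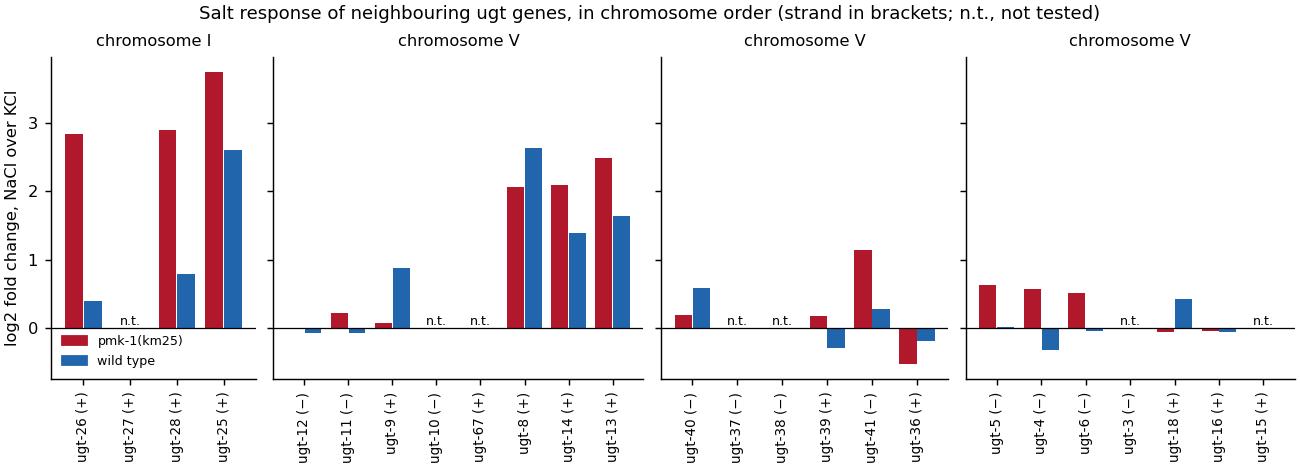
Log2 fold change of NaCl over KCl (vertical axis; bars show the estimate without its error) in pmk-1(km25) (red) and wild type (blue) for ugt genes of the 4 groups of at least 4 neighbours, in chromosome order with the strand in brackets; n.t. marks genes that were not tested. The 3 tested genes on chromosome I are above 0 in both genotypes, and their other neighbour ugt-27 was not tested. The adjacent ugt-8, ugt-14 and ugt-13 on chromosome V stand above the other tested genes of their group.

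Genes that work alongside the family were taken from 4 lists. For all genes, the shares called higher and lower in NaCl against KCl were 0.172% and 0.015% in wild type and 2.33% and 0.382% in pmk-1. In pmk-1 against wild type they were 16.7% and 10.1% in NaCl, and 15.2% and 9.18% in KCl. Of 14 tested genes for the supply and transport of UDP-sugars, none was called between the salts by edgeR in either genotype. At an unadjusted p under 0.05, 2 were higher in pmk-1 (8.84% of all genes) and 0 in wild type (2.94%). Between the genotypes nstp-6, of the nucleotide sugar transporter family, was higher in pmk-1 (4.82 CPM in pmk-1 NaCl and 5.04 in pmk-1 KCl, against 2.18 in wild-type NaCl and 1.93 in wild-type KCl; log2 fold change 1.14 ± 0.33 in NaCl and 1.38 ± 0.33 in KCl). D1005.2 was lower in both salts (-1.15 ± 0.35 in NaCl and -2.29 ± 0.37 in KCl) and nstp-2 in KCl (-0.43 ± 0.13). The most abundant gene of this list, the UDP-glucose dehydrogenase gene sqv-4, was not called in any comparison (175.5 CPM in pmk-1 NaCl and 164 in pmk-1 KCl, against 209 in wild-type NaCl and 197 in wild-type KCl).

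ABC transporters of the P-glycoprotein and multidrug resistance protein families can export conjugates. Of their 21 tested genes none was called between the salts in wild type, and none was called lower in NaCl in pmk-1. Called higher in NaCl in pmk-1 were 3 (14.3%, where the rule called 2.33% of all genes). In pmk-1 these were mrp-2 (58.3 CPM in NaCl, against 15.3 CPM in KCl; log2 fold change 1.93 ± 0.20, edgeR adjusted p = 5.19e-04), pgp-2 (71.3 against 36.4 CPM; 0.97 ± 0.18, edgeR adjusted p = 0.0140) and pgp-6 (178 against 18.3 CPM; 3.29 ± 0.67, edgeR adjusted p = 0.0236). In pmk-1 against wild type in NaCl, mrp-2 (1.46 ± 0.20) and mrp-3 (1.21 ± 0.30) were higher (9.52% of those tested, against 16.7% of all genes). In KCl mrp-3 (0.96 ± 0.30) and pgp-11 (0.93 ± 0.28) were higher (9.52%, against 15.2% of all genes). There pgp-2 (-0.56 ± 0.18) and pgp-4 (-0.94 ± 0.31) were lower (9.52%, against 9.18% of all genes). mrp-4 had the highest level of the list and was not called in any comparison.

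Among 11 tested regulators of xenobiotic and stress genes, pqm-1, a zinc finger transcription factor gene, was called between the salts in both genotypes. It averaged 51.9 CPM in pmk-1 NaCl and 24.5 in pmk-1 KCl, against 44.6 in wild-type NaCl and 15.9 in wild-type KCl, log2 fold changes of 1.08 ± 0.17 in pmk-1 (edgeR adjusted p = 0.00547) and 1.48 ± 0.17 in wild type (edgeR adjusted p = 0.00783). In pmk-1 against wild type, nhr-8, a nuclear receptor gene known for drug tolerance in worms, was higher in NaCl (0.85 ± 0.28) and in KCl (0.83 ± 0.28, edgeR adjusted p = 0.0499). In KCl pqm-1 (0.62 ± 0.17) and daf-16 (0.42 ± 0.11), the worm FOXO gene, were also higher, and aha-1 (-0.69 ± 0.16) was lower. skn-1, the worm counterpart of Nrf genes and the most abundant of the list, was not called in any comparison. The sulfotransferase gene ssu-1 (66 counts) and ahr-1 (79 counts) fell under the low-count filter and were not tested.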

How the data were processed

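Whole-animal total RNA was sequenced as paired reads of 150 bp, per the labels' protocols. The deposited table gives 1 expected count per gene and library; all values were whole as deposited, and none had to be rounded. Programs listed by the submitters' processing notes are DESeq2 1.40.2, R 4.3.1, RSEM 1.3.3 and STAR 2.7.1a; what each did, and the build, annotation and strandedness, is not given in the sources used here. Of 46904 gene identifiers 46817 were matched to the Ensembl release 115 annotation of WBcel235, which supplied symbols, coordinates and exon lengths.

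The deposited counts were filtered with filterByExpr (13353 genes kept), scaled by TMM and fitted with edgeR 4.0.16 (quasi-likelihood, R 4.3.3), with 1 mean per group over all 12 libraries. p-values were adjusted by Benjamini-Hochberg over all genes tested. The SE of each log2 fold change was derived from its quasi-likelihood F statistic (estimate over root F). The fit was checked on simulated counts. The biological coefficient of variation was 0.299, and library totals ran from 8931797 to 11445709 counts. Replicates were labelled biological.

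Alternatives were RLE scaling, DESeq2 1.42.0, no low-count filter, the replicate number as a block, the first replicates left out, only the 2 groups compared, and each library left out. Same-numbered libraries were compared by the correlation, over genes, of their deviations from the group means. For numbers 1, 2 and 3 it was 0.629, 0.197 and 0.496 between the salts in wild type and 0.743, 0.391 and 0.541 in pmk-1. Between genotypes it was 0.423, 0.226 and 0.259 in NaCl and 0.431, 0.0717 and 0.334 in KCl. Number 1 was below 0 against numbers 2 and 3 in every comparison. This is partly built in, since the deviations within a group sum to 0. With number 1 above 0 against itself, its other values are pushed below 0, and those among numbers 2 and 3 upward. Number 2 did not pair by number between the salts: number 2 in NaCl with number 3 in KCl gave 0.256 in wild type and 0.520 in pmk-1. In NaCl, number 2 of pmk-1 with number 3 of wild type gave 0.216, close to the same-numbered value. The check thus shows that the libraries numbered 1 deviated together. For the same reason it cannot decide whether number 2 was paired.

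The members, gene lists and tests were chosen with earlier results of these data known. Named members are mainly those called in a comparison, the 8 most abundant per length, and ugt-25, ugt-26, ugt-28 and ugt-29. In each comparison, values in its libraries are given for the 8 called members of smallest adjusted p. For the others such values are given only in part. Of the other lists, called genes are named and otherwise the most abundant; K08E3.5 was not matched. Sequences and promoters were not used here.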

Additional observations from a re-analysis of the deposited data

Results flagged for a closer look

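The salt by genotype interaction of ugt-28 (log2 estimate 2.11 ± 0.35, edgeR adjusted p = 0.0616) and of ugt-29 (2.54 ± 0.44, edgeR adjusted p = 0.0714) stood out because the estimates of pmk-1 against wild type had opposite signs in the 2 salts. For ugt-28 the estimate in NaCl (log2 fold change 0.61) was not called in the main edgeR fit. For both genes every pmk-1 library was above every wild-type library in NaCl and below every wild-type library in KCl. How many of all genes separated in this way was not counted. DESeq2 put both past the threshold (adjusted p = 1.44e-05 for ugt-28 and 1.05e-05 for ugt-29). Without pmk-1 NaCl replicate 1, the library with the highest sperm markers, the estimates were 1.81 ± 0.32 and 2.09 ± 0.36 (edgeR adjusted p = 0.0674 and 0.0594). The part of the gamete and embryo markers in this pattern was not tested.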

How the results depend on the processing

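No named member that was called in the reported fit or in an alternative had the opposite sign under that alternative; values of uncalled members were not counted in this. RLE scaling moved the median of all genes by less than 0.1 on the log2 scale and took the salt comparison in pmk-1 to 0 members lower (0.367% of all genes). DESeq2 called 6 members higher (0.65% of all genes) and 1 lower (0.159%) between the salts in wild type. In the interaction it called 5 higher (0.689%), where without the low-count filter edgeR called 2 (0.0974%). With the replicate block, edgeR called 4 members higher between the salts in wild type (0.809% of all genes) and 3 in the interaction (0.24%). It called 4 higher in pmk-1 against wild type in KCl (21.4% of all genes). The pairing check showed no pairing of number 2 there or between the salts, but by its construction it cannot decide this. In the other counts the block moved the number by less than 1.5 times. With the first replicates left out, 4 members were higher (0.788% of all genes) and 1 lower (0.227%) between the salts in wild type. In pmk-1 against wild type 9 were lower in NaCl (15.8%), and 4 higher (20.1%) and 18 lower (14.6%) in KCl. In the interaction 7 were higher (0.44%). With only the 2 groups compared, 5 were higher (1.14% of all genes) and 1 lower (0.18%) between the salts in wild type. In pmk-1 4 were higher (0.342%) and 0 lower (0.0398%) between the salts, and 8 were higher in pmk-1 against wild type in NaCl (12.5%). The causes of these shifts were not tested.

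Leaving out single libraries, members called higher ranged from 0 to 3 between the salts in wild type, 7 to 13 in pmk-1, 5 to 16 in pmk-1 against wild type in NaCl, 1 to 3 in KCl and 0 to 2 in the interaction. Members called lower ranged from 0 to 0, 0 to 1, 3 to 4, 6 to 11 and 0 to 0 in the same order. Over all genes, and again in that order, 0.0% to 0.501%, 0.699% to 3.09%, 7.66% to 19.6%, 5.92% to 19.8% and 0.0144% to 0.133% were called higher. The shares called lower were 0.0% to 0.0737%, 0.0937% to 0.975%, 4.5% to 12.5%, 4.09% to 13.2% and 0.0% to 0.0221%. For single named members these omissions gave 745 results on the same side of the threshold, 89 weaker and 6 stronger, and the other alternatives 367, 21 and 21. These counts include uncalled members, which stayed on the same side by remaining uncalled, whereas all 89 weaker results were lost calls. Of the calls alone, those held in every omission were 0 of 1 between the salts in wild type and 7 of 12 in pmk-1. In pmk-1 against wild type they were 7 of 16 in NaCl and 7 of 10 in KCl. The gene promoters were not searched for motifs, since no sequence was used here. Replicate libraries are few, and ugt-37 and ugt-59 could not be fitted under the filter.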
